A study of Homo sapiens with 4 samples.

Results

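The circular RNAs described here come from SGO2 and 9 genes of the cohesin ring and its regulators, STAG1, STAG2, NIPBL, PDS5A, PDS5B, SMC1A, SMC3, RAD21 and WAPL. They were taken from the deposited table of circles by name: a circle belongs to the set when one of these 10 symbols stands among the genes listed for it and the circle is not of the antisense type. This gave 958 of 211599 circles, of which 855 had at least 1 count. Together they held 9718 of 1702290 counts (0.571%). SGO2 was included because its circles rose in this same comparison, so its values below are a description and carry no test. The other genes were named for their function, but with earlier results of these data known. Their shares set against all genes and circles below are therefore descriptions.

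The cells were MDA-MB-468, a human breast cancer line that is widely used and established. Each of the 4 libraries was made from its radioresistant derivative, obtained with a total of 50 Gy in fractions. The control libraries (shCtrl, n = 2) carried a control hairpin and the knockdown libraries (shHNRNPL, n = 2) stably carried 1 hairpin against HNRNPL, a splicing regulator that binds RNA. No row for HNRNPL was analysed here, so the knockdown rests on the labels, and with 1 hairpin the effects of HNRNPL loss and of that hairpin cannot be told apart. Unirradiated cells were not analysed here. A circular RNA arises when the end of an exon is spliced back to the start of the same or an earlier exon. Total RNA was copied with a reverse transcriptase that can run around a circle several times, and the product was amplified and read on nanopores. Replicates are labelled as biological, with no statement on separate cultures, so the spread and p-values measure only the spread between these samples. The libraries are bulk RNA, and fewer cells with a circle and less of it per cell cannot be told apart. The linear RNA of these genes was not measured here.

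Cohesin is a ring that holds sister chromatids together from DNA replication to mitosis and extrudes chromatin loops in interphase. The ring is built from SMC1A, SMC3 and RAD21 with either STAG1 or STAG2. NIPBL drives loading and loop extrusion, PDS5A and PDS5B bind the ring and govern how long it stays on DNA, and WAPL releases it. SGO2, a shugoshin, recruits the phosphatase PP2A and protects cohesin at centromeres.

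Library totals were between 282737 and 556578 counts. Where a library has 0 counts, up to 3 are allowed, or between 0.539 and 1.06 per 100000. Reads were amplified without molecular identifiers, so this floor and the intervals below cover counting error only. Control 1 stood apart in content, with 70.9% of its counts in exon circles and 19.7% in intron circles, against 84.9% to 85.7% and 9.93% to 10.6% in the other libraries. Of 12 epithelial markers, 9 had circles, while KRT8, KRT18 and KRT19, keratins of simple epithelia, were at 0. The summed epithelial markers lay at 123 and 83.4 per 100000 in controls 1 and 2 and at 56.6 and 55.1 in knockdowns 1 and 2. GRHL2, with 417, 372, 125 and 157 counts, and EGFR, with 115, 52, 12 and 21, made up most of that sum. EPCAM had 9, 13, 8 and 10 counts and ESRP1 10, 9, 6 and 14, and these were not lower per 100000 in both knockdown libraries. None of 10 markers of blood, endothelial and stromal cells had a count. The part of these differences in the results below was not tested.

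Circles of SGO2 were scarce in the controls and plentiful in the knockdown libraries. The gene spans chromosome 2, 200526142 to 200584096, on the plus strand of GRCh38.p14. Its 32 circles had 20 and 15 counts in controls 1 and 2 and 110 and 189 counts in knockdowns 1 and 2. The groups did not overlap, but SGO2 was chosen for this rise, so the lack of overlap is no further support for it. The knockdown libraries differed from each other far less than from either control. Per 100000 counts the level was 3.46 ± 1.09 in the controls against 43.6 ± 6.71 in the knockdowns (SD, n = 2), 12.6 times as high. The fitted log2 fold change was 3.99, scaled by the trimmed mean of M values (TMM), and 3.58 scaled by library totals alone.

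**Figure D1:**
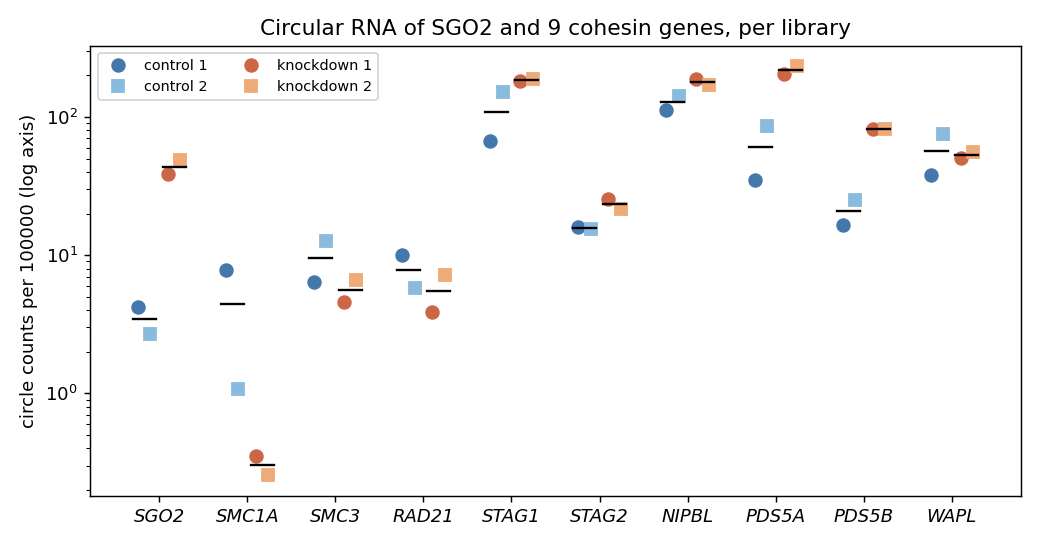
Circle counts per 100000 of each gene in each of the 4 libraries, on a log axis, with a black line at the group mean; blue points are controls and orange points knockdowns. SGO2 moves from 3.46 to 43.6, while SMC3, RAD21 and WAPL have overlapping groups.

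A single circle carried most of the SGO2 signal. It runs from 200569663 to 200575461 and joins 3 exons of 230, 2928 and 151 nt, 3309 nt in all. The middle block, by far the largest exon in any SGO2 circle named here, lies at 200571050 to 200573977. This circle had 3 and 10 counts in controls 1 and 2 and 82 and 135 counts in knockdowns 1 and 2, or 1.22 ± 0.821 and 31.8 ± 3.93 per 100000 (SD, n = 2). Its share of the gene's circle counts was 15.0% (95% Wilson interval 5.24 to 36.0) in control 1 and 66.7% (41.7 to 84.8) in control 2. In knockdowns 1 and 2 the share was 74.5% (65.7 to 81.8) and 71.4% (64.6 to 77.4). Control 2 and the knockdown libraries therefore had intervals that overlap, and control 1 stood below them.

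The low share in control 1 went with an intron circle of 1728 nt at 200556574 to 200558301, which had 10 counts there and 0 in the other 3 libraries. With exon circles alone SGO2 stood at 2.19 ± 0.708 per 100000 in the controls against 41.4 ± 5.97 in the knockdowns (SD, n = 2). The file also lists shorter forms of the leading circle, of 1778 and 551 nt, in which part of the large exon is missing, but gives no count per form.

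Most of the SGO2 counts lay in circles over the large exon. The 28 circles that overlap it had 10 and 14 counts in controls 1 and 2 against 107 and 186 counts in knockdowns 1 and 2. The 4 that do not overlap it had 10 and 1 against 3 and 3 counts, and the 10 were those of the intron circle above. The 3 circles left without it had 0, 1, 3 and 3 counts, also higher per 100000 in both knockdown libraries, so circles off the large exon were too few to set against those over it. All SGO2 circles but the leading one summed to 2.25 ± 1.91 per 100000 in the controls against 11.9 ± 2.77 in the knockdowns (SD, n = 2), so the remainder was also higher in each knockdown library. The 8 circles that end at the leading circle's last exon, at 200575461, had 3, 13, 92 and 162 counts in the order control 1, control 2, knockdown 1, knockdown 2, the order used for all 4 values in a row below. Among them the same donor site was joined back to different earlier exons.

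**Figure D2:**
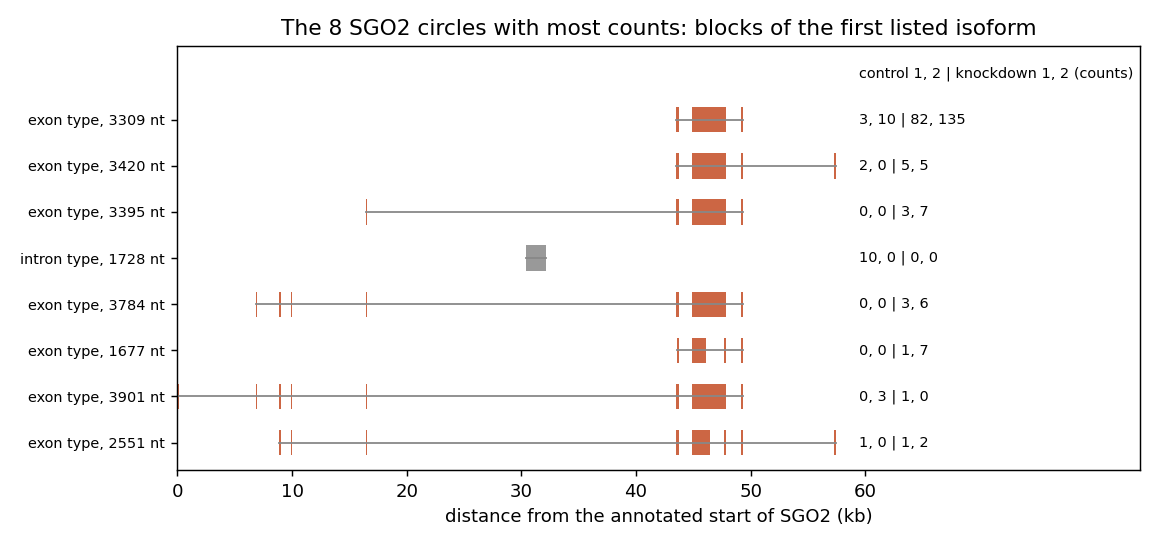
Blocks of the 8 SGO2 circles with most counts along the gene, in kb from its annotated start, with the counts in the 4 libraries at the right; orange is the exon type and grey the intron type. The leading circle, of 3309 nt, had 3, 10, 82 and 135 counts.

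For the other 9 genes, counts of circles naming 1 gene were summed and tested with edgeR's quasi-likelihood test over 5911 host genes, with Benjamini-Hochberg adjustment and a threshold of 0.05. Over all host genes 1.51% passed, 1.47% higher and 0.0338% lower in the knockdown. The split was 87 to 2 genes with all libraries, 713 to 562 without control 1, 1059 to 1056 without control 2 and 237 to 89 with no filter. Of the 9, 1 rose (PDS5B) and 0 fell. The count depended on single libraries: 5 passed as higher and 1 as lower without control 1, 6 and 1 without control 2, and 0 without knockdown 1 or without knockdown 2. At an unadjusted p below 0.05, 4 were higher and 0 lower, against 8.12% and 6.89% of all host genes. The log2 fold change lay above 0 for 7 of the 9, against 39.9% of all host genes, and the median was 0.78 against -0.27. The median of all host genes was -0.67 with scaling by library totals, a shift that applies to every value here.

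The core ring subunits had few circles. SMC1A, the ATPase subunit paired with SMC3, lies on chromosome X, 53374149 to 53422728, and its 20 circles had 37, 6, 1 and 1 counts. Only the controls held more than 1 count, and control 1 held most of them. The circles that name SMC1A alone, which the fit used, had 34, 2, 1 and 1 counts. The fitted log2 fold change was -3.10 ± 1.41 SE (edgeR adjusted p = 0.344), and with 1 count in each knockdown library no fold is read from it. The leading SMC1A circle, a single block of 1007 nt, had 6 counts in control 1 and 0 elsewhere.

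SMC3, on chromosome 10 at 110567695 to 110606048, had 11 circles with 30, 71, 13 and 26 counts, or 9.55 ± 4.53 per 100000 in the controls against 5.63 ± 1.46 in the knockdowns (SD, n = 2). The groups overlapped, and the test did not pass (log2 fold change -0.49 ± 0.53 SE, edgeR adjusted p = 0.700). Most of this came from 1 circle at 110596398 to 110598290, which had 26, 69, 8 and 16 counts. It is listed as 1 block of 1893 nt, with a second form of 309 nt in which the inner part is spliced out. Its groups did not overlap, at 8.95 ± 4.87 and 3.46 ± 0.896 per 100000 (SD, n = 2), and it did not pass the test of circles (log2 fold change -1.33 ± 0.49 SE, edgeR adjusted p = 0.323). The other 10 SMC3 circles together went the other way, with 4, 2, 5 and 10 counts.

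RAD21, the kleisin that closes the ring and is cut at anaphase, had 48 circles with 47, 32, 11 and 28 counts. Its level was 7.85 ± 2.97 per 100000 in the controls against 5.53 ± 2.32 in the knockdowns (SD, n = 2), with overlapping groups. The fit used only the circles that name RAD21 alone, with 35, 32, 11 and 28 counts. The fitted log2 fold change was 0.10 ± 0.49 SE (edgeR adjusted p = 0.953), and its sign turned to -0.32 with scaling by library totals. Its leading circle, a block of 899 nt, had 0, 0, 2 and 8 counts.

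STAG1 and STAG2 are alternative subunits of the ring that contact its regulators. STAG2, on chromosome X at 123960560 to 124102656, had 105 circles with 75, 86, 72 and 84 counts, so nearly equal counts in libraries of unequal size. Its level was 15.7 ± 0.300 per 100000 in the controls against 23.5 ± 2.80 in the knockdowns (SD, n = 2). The groups did not overlap, and the test did not pass (log2 fold change 0.89 ± 0.35 SE, edgeR adjusted p = 0.274). No STAG2 circle was abundant: the leading one, at 124037527 to 124042645 with 4 exons and 382 nt, had 1, 5, 6 and 1 counts.

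STAG1 was one of the richest hosts, with 184 circles. It lies on the minus strand of chromosome 3, 136336236 to 136752378. The circles had 317, 836, 518 and 729 counts, or 109 ± 58.8 per 100000 in the controls against 185 ± 2.44 in the knockdowns (SD, n = 2). Control 1 was far below control 2, and both knockdown libraries lay above them. Within STAG1 lies RNU6-1284P, a small U6 pseudogene, and circles that reach across it carry its name as well. The 76 circles with a further gene name had 182, 423, 110 and 150 counts, and the 108 that name STAG1 alone had 135, 413, 408 and 579 counts. The first kind stood at 57.3 ± 26.5 per 100000 in the controls against 38.7 ± 0.352 in the knockdowns (SD, n = 2). The second kind stood at 51.4 ± 32.3 and 146 ± 2.79 (SD, n = 2).

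The host gene test uses circles of the second kind only. It gave a log2 fold change of 1.75 ± 0.57 SE for STAG1 (edgeR adjusted p = 0.188). With each circle added to every gene it names, the log2 fold change was 1.03 (edgeR adjusted p = 0.416), where 0.442% of all genes passed. STAG1 passed in neither.

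Within STAG1 the circles moved apart by the exon at which they begin. The 12 circles whose first exon starts at 136423044 had 35, 242, 355 and 488 counts, or 25.4 ± 25.5 per 100000 in the controls against 125 ± 0.428 in the knockdowns (SD, n = 2). The 14 that begin farther upstream, at 136502779, had 113, 281, 67 and 81 counts, or 37.2 ± 18.8 and 22.2 ± 2.09 per 100000 (SD, n = 2). The 15 that begin at 136477412 had 48, 109, 25 and 33 counts, or 14.9 ± 6.66 and 8.65 ± 0.278 (SD, n = 2). So circles from 1 downstream acceptor were higher and circles from the pair of upstream acceptors lower in both knockdown libraries, though at 136502779 knockdown 1 (23.7 per 100000) lay only just below control 1 (23.9). Circles that begin at 136433659 (12, 20, 12 and 13 counts) and 136630981 (12, 19, 7 and 10 counts) had overlapping groups. By last exon, the 7 circles that end at 136377660, the donor of the leading circle, had 52, 209, 267 and 324 counts. The groups of ends were formed after the values were seen and carry no test.

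The leading STAG1 circle shows the first pattern. It joins 7 exons of 720 nt in all from 136377660 to 136423044, and had 29, 160, 256 and 308 counts (log2 fold change 2.35 ± 0.60 SE, edgeR adjusted p = 0.174). A circle of 6 exons and 627 nt at 136398749 to 136423044 had 4, 38, 52 and 92 counts. A circle with the same last exon but 15 exons and 1601 nt, at 136398749 to 136502779, had 44, 122, 23 and 36 counts (log2 fold change -0.82 ± 0.43 SE, edgeR adjusted p = 0.430). These last circles share the donor at 136398749 and differ in the acceptor. The test of circle use compares the changes of a gene's circles with each other. With the 15 circles that name STAG1 alone, the planned set, STAG1 did not pass (edgeR diffSpliceDGE, adjusted p = 0.165, background 4.08%). It passed when all 27 tested circles were counted (edgeR diffSpliceDGE, adjusted p = 0.00907), where 3.79% of all genes passed. That second setting was not planned and was chosen after the data were seen. With either knockdown library left out, the 27 circles did not pass. Such a fit rests on 1 knockdown library, and very few genes of the whole table passed in it.

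**Figure D3:**
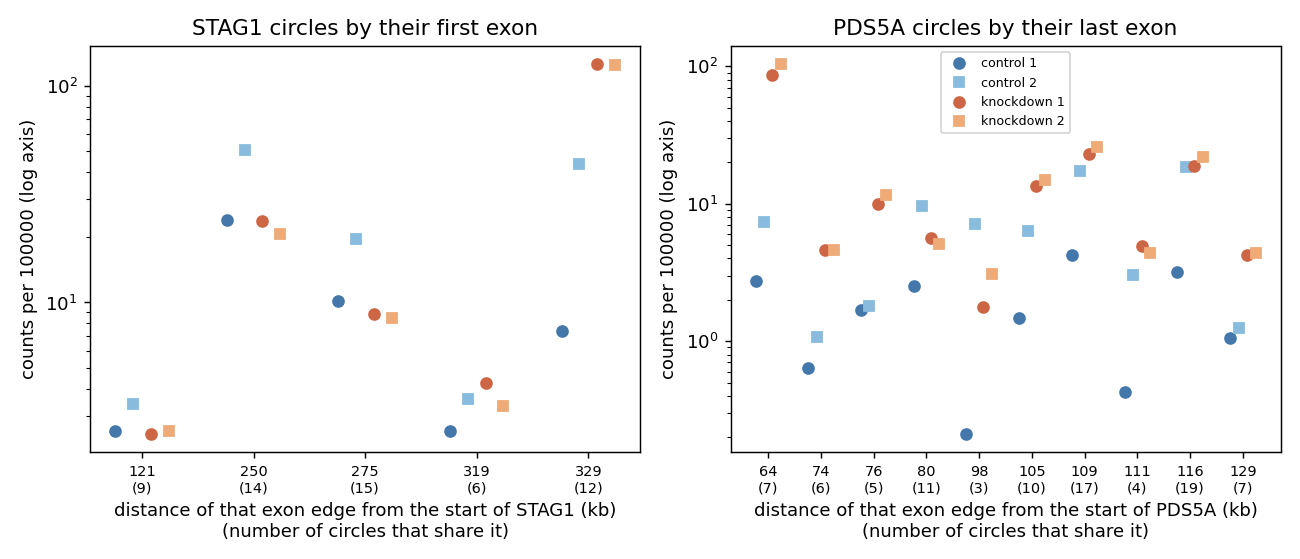
Counts per 100000 in each library, on a log axis, of STAG1 circles grouped by their first exon and of PDS5A circles grouped by their last exon, placed by distance from the gene's start in kb with the number of circles in brackets. The 12 STAG1 circles that begin at 1 downstream exon go from 25.4 to 125, and the 7 PDS5A circles that end at the most upstream donor shown go from 5.06 to 95.0. The leading PDS5A circle makes up most of the latter, and the groups were formed after the values were seen.

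NIPBL, on chromosome 5 at 36876769 to 37066413, had the most counts of any single gene here. Its 147 circles had 534, 786, 530 and 664 counts, or 127 ± 19.9 per 100000 in the controls against 179 ± 12.3 in the knockdowns (SD, n = 2). The groups did not overlap but the test did not pass (log2 fold change 0.78 ± 0.46 SE, edgeR adjusted p = 0.456). The leading circle, at 36953618 to 36976402, joins 8 exons of 1574 nt in all and had 327, 316, 266 and 358 counts, or 63.0 ± 8.80 and 92.9 ± 1.71 per 100000 (SD, n = 2). It held 50.7% ± 14.9 of the gene's circle counts in controls and 52.1% ± 2.64 in knockdowns (SD, n = 2), a difference within the spread of the controls.

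A longer NIPBL circle adds the next exon, of 1626 nt, to the leading one. It runs to 36986301, joins 9 exons of 3200 nt in all, and had 64, 123, 86 and 94 counts. A circle of the intron type ends at the same position and starts at 36982165. It had 48, 202, 72 and 85 counts, with control 2 the highest of the libraries per 100000 as well. NIPBL circle use did not pass (edgeR diffSpliceDGE, adjusted p = 0.497).

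The PDS5 paralogues had the largest fitted rises among the 9 genes with all 4 libraries, while STAG1 gained more than PDS5B in counts per 100000. PDS5B, on chromosome 13 at 32586452 to 32778019, had 113 circles with 78, 139, 231 and 317 counts. Its level was 20.7 ± 5.98 per 100000 in the controls against 81.4 ± 0.377 in the knockdowns (SD, n = 2), 3.93 times as high. It rose by edgeR's test (log2 fold change 2.25 ± 0.45 SE, adjusted p = 0.0428). The call was close to the threshold: the adjusted p was 0.0967 with edgeR's newer dispersion method, where 0 host genes passed. With knockdown 1 or knockdown 2 left out, PDS5B did not pass (log2 fold change 2.26 and 2.23). Those fits rest on 1 knockdown library, and fewer host genes passed in them.

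The leading PDS5B circle joins 6 exons of 782 nt in all at 32753332 to 32760720. It had 6, 15, 57 and 95 counts, or 1.98 ± 1.01 and 22.2 ± 2.94 per 100000 (SD, n = 2). Its log2 fold change of 3.46 ± 0.45 SE did not pass over all circles (edgeR adjusted p = 0.0838). It passed with DESeq2 (adjusted p = 1.42e-08), where 1085 of 21576 circles did. By edgeR it passed with 5 counts in each of 2 libraries (adjusted p = 0.00686), where 1404 of 11711 did. With no filter it also passed (edgeR adjusted p = 0.000148), where 471 of 190152 did. With control 1, control 2, knockdown 1 or knockdown 2 left out, its log2 fold change was 3.24, 3.88, 3.65 and 3.27. The circle did not pass with either knockdown library left out. Such fits leave 1 library in a group, and calls over the whole table moved widely with them. A longer circle in the 5′ part of the gene, at 32648754 to 32710106 with 18 exons and 2146 nt, had 4, 27, 42 and 38 counts. Its adjusted p was 0.244 by edgeR, and its knockdown libraries lay above control 2 by less than those of the leading circle did. Without the leading circle, PDS5B circles summed to 18.8 ± 4.98 per 100000 in the controls against 59.2 ± 3.32 in the knockdowns (SD, n = 2), so the gain was spread over many circles. Circle use in PDS5B did not pass (edgeR diffSpliceDGE, adjusted p = 0.474).

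PDS5A lies on the minus strand of chromosome 4, 39822863 to 39977911, and had 208 circles, the most of any gene here. They had 165, 481, 573 and 906 counts, or 60.7 ± 36.4 per 100000 in the controls against 217 ± 20.7 in the knockdowns (SD, n = 2), 3.58 times as high. The controls differed from each other more than the knockdowns did, and the test did not pass (log2 fold change 2.12 ± 0.60 SE, edgeR adjusted p = 0.138). That test used the circles that name PDS5A alone, with 152, 476, 569 and 902 counts.

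The largest single part of the PDS5A gain came from 1 circle of 5 exons and 563 nt at 39913611 to 39925933. It had 9, 37, 228 and 377 counts, or 4.28 ± 3.35 per 100000 in the controls against 88.6 ± 11.2 in the knockdowns (SD, n = 2). Its log2 fold change of 4.39 ± 0.54 SE did not pass over all circles (edgeR adjusted p = 0.0838). It passed with DESeq2 (adjusted p = 5.21e-17), where 1085 of 21576 circles did. By edgeR it passed with 5 counts in each of 2 libraries (adjusted p = 0.00438), where 1404 of 11711 did. With no filter it also passed (edgeR adjusted p = 1.83e-12), where 471 of 190152 did. With control 1, control 2, knockdown 1 or knockdown 2 left out, its log2 fold change was 3.94, 5.29, 4.58 and 4.21. The circle did not pass with either knockdown library left out. Such fits leave 1 library in a group, and calls over the whole table moved widely with them. Its share of the gene's circle counts went from 6.57% ± 1.58 to 40.7% ± 1.29 (SD, n = 2), and the intervals of control and knockdown libraries were far apart. In control 2, the control with the higher share, it held 7.69% (95% Wilson interval 5.63 to 10.4). In knockdown 1, the knockdown with the lower share, it held 39.8% (35.9 to 43.9).

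Circles that share the acceptor of this circle at 39925933 but run on to later donors had smaller fitted changes. The log2 fold change of 9 such circles ran from -1.71 to 3.66, above 0 for 8 of them, and none passed (smallest edgeR adjusted p = 0.117). The circle to 39902347 had 5, 6, 17 and 28 counts, and that to 39910244 had 0, 3, 6 and 21. The 22-exon circle of 2657 nt to 39862219 had 10, 66, 35 and 46 counts, and the circle to 39869394 had 6, 46, 24 and 23 counts. The groups of these last circles, which were the most abundant of the 9, overlap. Grouped by donor, the 7 circles that end at 39913611 went from 5.06 ± 3.26 to 95.0 ± 11.9 per 100000 (SD, n = 2). They had 13, 41, 245 and 404 counts, of which the leading circle alone held 9, 37, 228 and 377. The 11 that end at 39898389 stood at 6.12 ± 5.06 and 5.39 ± 0.380 (SD, n = 2). Of the donors with at least 40 counts, 39898389 and 39879728 had overlapping groups. The others were higher in both knockdown libraries by 1.86 times (39862219) to 6.14 times (39902347), less than the 18.8 times at 39913611. That last value is mostly the leading circle again. The groups of donors were formed after the values were seen and carry no test. Circle use in PDS5A passed (edgeR diffSpliceDGE, 34 circles, adjusted p = 0.0474, background 4.08%). It did not pass with circles added to every gene they name (edgeR diffSpliceDGE, adjusted p = 0.0544). Nor did it pass with either knockdown library left out, where very few genes of the whole table did.

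**Figure D4:**
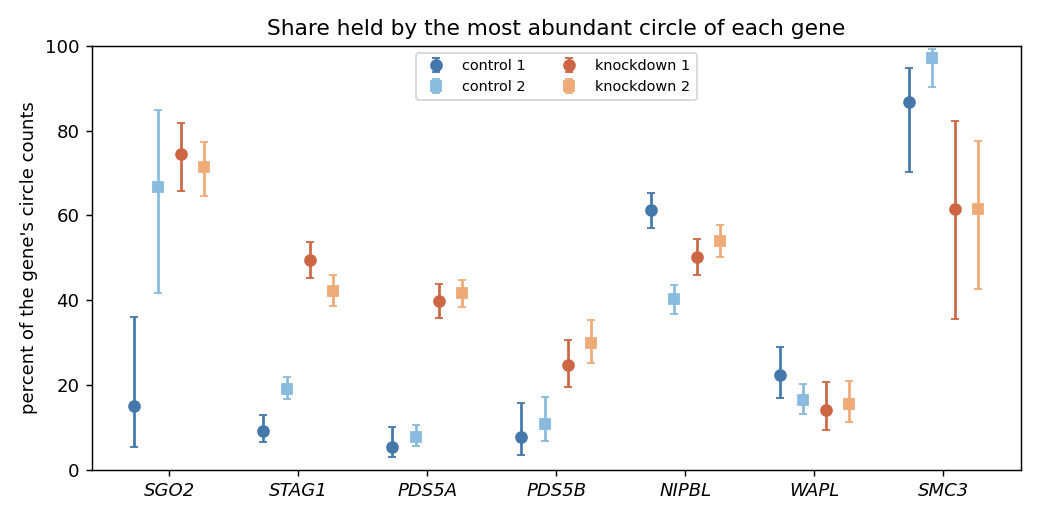
Share of each gene's circle counts held by its most abundant circle, in percent, per library, with 95% Wilson intervals as bars. The share goes from 6.57% to 40.7% in PDS5A and from 14.1% to 45.8% in STAG1, and stays near 50.7% and 52.1% in NIPBL.

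WAPL, on the minus strand of chromosome 10 at 86435256 to 86521792, did not follow the PDS5 genes. Its 90 circles had 179, 420, 142 and 219 counts, or 56.7 ± 26.6 per 100000 in the controls against 53.1 ± 4.14 in the knockdowns (SD, n = 2), with overlapping groups (log2 fold change 0.17 ± 0.48 SE, edgeR adjusted p = 0.901). The sign turned to -0.16 with scaling by library totals. Its leading circle, 11 exons and 1470 nt at 86451967 to 86473973, had 40, 69, 20 and 34 counts. A shorter circle with the same acceptor, 8 exons and 1013 nt at 86458989 to 86473973, had 11, 33, 28 and 38 counts (log2 fold change 1.25 ± 0.46 SE, edgeR adjusted p = 0.322). Circles that end at the earlier donor 86458989 had 11, 36, 28 and 39 counts and were higher per 100000 in both knockdown libraries, as were those at 86470992 with 12, 42, 27 and 32 counts. Those that end at the later donors 86451967, 86443275 and 86446242 had 63, 106, 32 and 40 counts, 17, 37, 7 and 9 counts, and 21, 21, 2 and 4 counts, each lower in both knockdown libraries. The remaining donors with at least 40 counts, 86467279 and 86497201, had overlapping groups. WAPL circle use did not pass (edgeR diffSpliceDGE, adjusted p = 0.495), and the ends were grouped after the values were seen.

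In the test of single circles, 0% of the 21576 circles tested passed by edgeR (0 circles, with 2895 at an unadjusted p below 0.05, while DESeq2 called 1085). Of the 9 genes' circles, 110 had the 10 counts needed for the test. At an unadjusted p below 0.05, 23 were higher and 3 lower in the knockdown, where 9.42% and 4% of all circles were. The log2 fold change was above 0 for 72 and below 0 for 38, against 40.2% of all circles above 0. The median was 0.87 against -0.39 over all circles, and stayed at 0.87 with the 12 circles at 0 counts in a group set to the bound that 3 counts over that group give. The median over all circles depended on the filter: it was 0.01 with 5 counts in each of 2 libraries and -2.22 with no filter. Circles of 1 gene share exons and libraries and are not independent, so these comparisons are descriptions. By gene, the log2 fold change was above 0 for 29 of 34 PDS5A circles and 12 of 13 PDS5B circles. For NIPBL it was 7 of 10, STAG1 13 of 27, WAPL 8 of 19, STAG2 2 of 5, RAD21 1 of 1 and SMC3 0 of 1. Of the 23 circles higher at an unadjusted p below 0.05, PDS5A held 12 and PDS5B 5. The pooled rise thus lay mostly in the PDS5 genes. The circles below the 10 counts, 741 with SGO2 included, held 23.2% of the counts of all 10 genes.

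**Figure D5:**
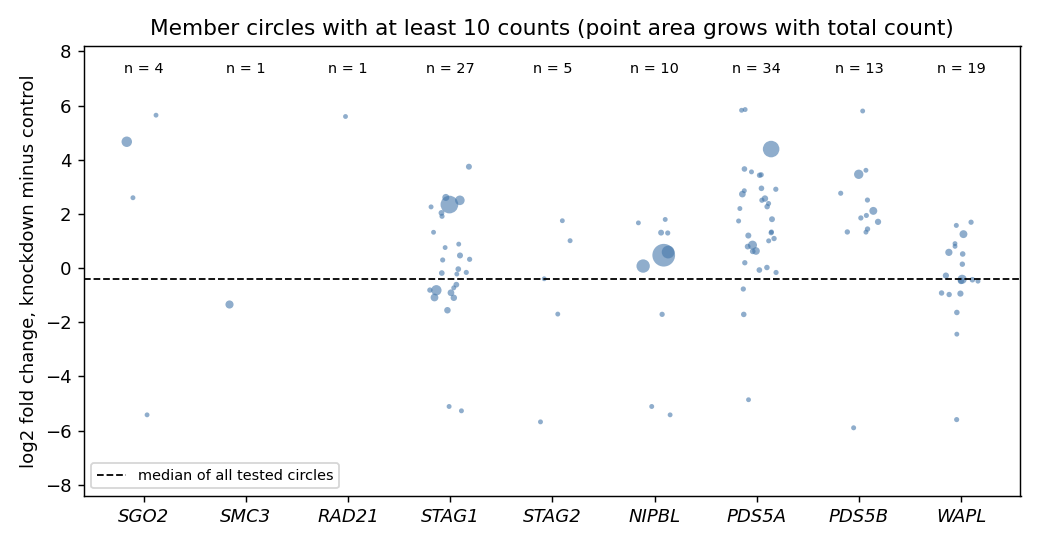
Log2 fold change, knockdown minus control, of each tested circle by gene, with point area growing with its counts and a dashed line at the median of all tested circles (-0.39). PDS5A and PDS5B circles lie mostly above the line; values of circles with a group at 0 counts are fitted and not bounds.

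Exon circles held 90.2% of the counts of these genes, whose circles are all of the exon or intron type. The share was 86.3% over all exon and intron circles and 84.5% over all circles that were not antisense. The back splice carried the canonical AG acceptor and GT donor, with no mark on the letters, in 102 of the 114 tested circles with SGO2 included (89.5%), against 69.2% of all circles with at least 10 counts that were not antisense. The table also lists the bases that could stand at either end of a back splice. They are given for the leading circles of the 5 genes with the most abundant ones, since they show how closely each join can be placed.
SGO2 200569663 to 200575461: G
STAG1 136377660 to 136423044: AGGT
PDS5A 39913611 to 39925933: G
PDS5B 32753332 to 32760720: AGG
NIPBL 36953618 to 36976402: AG
SGO2 and PDS5A had the same single letter, and that of STAG1 spans the letters of both splice sites.

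Among these genes the length of the circle population moved differently. The count-weighted median length of STAG1 circles was 1468 and 1142 nt in the controls and 720 nt in each knockdown library. For PDS5A it was 1234 and 1428 nt in controls and 804 and 666 nt in knockdowns, and for PDS5B 2146 and 1395 nt against 1080 and 1066 nt. Intron circles held 40 of the 78 PDS5B counts in control 1. They held 14 of 139 in control 2, 16 of 231 in knockdown 1 and 20 of 317 in knockdown 2. SGO2 did not become shorter, with 1728 nt in control 1 and 3309 nt in each of the other 3 libraries. SMC3 stayed at 1893 nt in all 4, and NIPBL and WAPL held 1574 and 1470 nt in all but control 2, where they had 1684 and 1531 nt. Over all 10 genes the median went from 1574 nt in each control to 1347 and 1233 nt, while over all circles it was 1306 ± 71.4 nt and 1329 ± 72.1 nt (SD, n = 2). Within genes, Spearman's correlation of length and log2 fold change across tested circles was between -0.21 for PDS5A and -0.56 for NIPBL in the 5 genes with 10 or more such circles, and -0.06 over all 21576. Circles of 1 gene share exons and libraries, so these are descriptions.

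The PDS5 paralogues share the layout of their exons. The 22-exon PDS5A circle and the 18-exon PDS5B circle hold a run of 15 exons of identical lengths, 1724 nt in all, from an exon of 98 nt to one of 161 nt. All 5 exons of the leading PDS5A circle lie in that run. The matching PDS5B exons, from 32658434 to 32675959, had 0 circles with that pair of ends, and the 2 circles that start there had 0, 0, 3 and 0 counts. The leading circles thus came from different parts of the paralogues. Whether reads of one were counted for the other was not tested.

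Set against the length of the gene, the order of levels changed. In controls, circles per 100000 counts and 100 kb of gene were highest for NIPBL (67.0 ± 10.5) and WAPL (65.5 ± 30.7), which do not differ beyond their spread. PDS5A (39.1 ± 23.5), RAD21 (27.2 ± 10.3), STAG1 (26.1 ± 14.1) and SMC3 (24.9 ± 11.8) followed, again within their spread. STAG2 (11.02 ± 0.211), PDS5B (10.8 ± 3.12), SMC1A (9.17 ± 9.83) and SGO2 (5.98 ± 1.88) were lowest. In knockdowns PDS5A led (140.2 ± 13.4), followed by NIPBL (94.2 ± 6.50), SGO2 (75.3 ± 11.6) and WAPL (61.4 ± 4.78), of which SGO2 and WAPL lie within about their summed spread. STAG1 (44.4 ± 0.587) and PDS5B (42.5 ± 0.197) came next, and RAD21 (19.2 ± 8.04), STAG2 (16.5 ± 1.97), SMC3 (14.7 ± 3.80) and SMC1A (0.628 ± 0.142) were below them (all SD, n = 2).

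The profile of SGO2 across the 4 libraries was compared with those of 3364 host genes with at least 40 counts, by Euclidean distance of centred log2(counts per 100000 + 0.5). The nearest was LYPLAL1, at 0.298, with 20, 21, 124 and 216 counts. LCORL (0.646; 16, 10, 88 and 88 counts), ENSG00000227227 (0.655) and HECTD2 (0.818) were also among the nearest 5. Among the cohesin genes PDS5B was the nearest, at rank 78, then PDS5A at 121 and STAG1 at 193, while SMC3 stood at 2320.

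Of 40 other genes of cohesin loading, acetylation, protection and release, 17 could be tested. By edgeR, 1 rose (ESCO1) and 0 fell, where 1.47% and 0.0338% of all host genes did. The log2 fold change lay above 0 for 8 and below 0 for 9, with a median of -0.10 against -0.27 over all host genes. ESCO1 acetylates SMC3 and so stabilises cohesin on DNA. It had 85, 183, 540 and 871 counts, or 25.4 ± 10.5 per 100000 in the controls against 207.0 ± 22.6 in the knockdowns (SD, n = 2). The test gave 3.29 ± 0.55 SE on the log2 scale (edgeR adjusted p = 0.0281). The edgeR adjusted p was 0.0841 with the newer dispersion method, where 0 host genes passed. With knockdown 1 or knockdown 2 left out, ESCO1 did not pass (log2 fold change 3.41 and 3.15), and fewer host genes passed. SGO1, the paralogue of SGO2, had 3, 1, 2 and 1 counts and was too low to test. TIMELESS, a replication fork protein tied to cohesion, had 13, 6, 0 and 0 counts and did not pass. BUB1, the kinase whose histone mark recruits shugoshin, had 106, 108, 34 and 53 counts, lower per 100000 in both knockdown libraries, and did not pass. PPP2R5E, a subunit of PP2A, had 42, 20, 28 and 41 counts (log2 fold change 1.08, edgeR adjusted p = 0.310). For the other tested PP2A genes the log2 fold change was 1.19 (PPP2R5A), 0.35 (PPP2R5C), 0.03 (PPP2R1B) and -0.10 (PPP2CB), and none passed.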

How the data were processed

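Circular RNA was measured in 4 libraries (2 control, 2 knockdown), grouped by the sample titles. The authors deposited whole-number counts per circle, not normalized; each row names CIRI-long, a caller of circles from long reads, per the file headers and columns. The build is GRCh38.p14 and DESeq2 is named, per the submitters' processing notes; other steps are not given in the sources used here. Library totals were 472428, 556578, 282737 and 390547 counts. All per-sample columns of the table of counts were mapped to samples (0 left over). The deposited table of scaled values was not used.

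The 10 member genes, the list of 40 further genes and the markers were chosen with earlier results of these data known. Named circles were the most abundant of each gene and all members of the set's 20 most abundant; the genes nearest to SGO2 were the 5 at the smallest distance, of which 1 is not reported here. Counts per 100000 were computed from the totals. Tests used edgeR 4.0.16 (R 4.3.3; quasi-likelihood, TMM, default dispersion method) on features with at least 10 counts, fitted over the whole table and tested on simulated data, with Benjamini-Hochberg adjustment. Host genes were summed from circles naming 1 gene and not antisense (79.4% of counts). Circle use was tested with diffSpliceDGE (F test, genes with at least 2 tested circles). SE is the log2 fold change over the root of F. Coordinates are as deposited; 953 of the 958 circles lay within 1000 nt of their gene in RefSeq's table. Same-numbered libraries did not deviate together over 4944 circles (r = 0.07). With so few libraries this cannot settle whether they shared a culture or day. No label says that they did, so the main fits used no replicate block. Alternatives were DESeq2 1.42.0, other scalings, filters, naming rules, the dispersion method, a replicate block and leaving out each library.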

Additional observations from a re-analysis of the deposited data

How the results depend on the processing

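With 2 libraries a group, the counts of calls moved with the method, and the causes were not tested. Host genes called numbered 89, and 163 with DESeq2, 0 with edgeR's newer estimate of dispersion (934 at unadjusted p below 0.05), 51 with 5 counts in each of 2 libraries, 326 with no filter, 37 with circles added to every gene they name, and 14 to 2115 without 1 library. Circles called numbered 0, and 1085 with DESeq2, 1404 with 5 counts in each of 2 libraries, 471 with no filter, and 0 to 6242 without 1 library. Genes with changed circle use numbered 95, and 294 with 5 counts in each of 2 libraries, 56 with Simes' method, and 2 to 1061 without 1 library; with circles added to every gene (127), a setting chosen after seeing the data for its repeats, it was 1388 without control 1, 1438 without control 2, and 3 and 2 without knockdowns 1 and 2. A replicate block gave 314 host genes, 1653 circles and 552 genes with changed use, or 698 with circles added to every gene. No label says whether same-numbered libraries belong together.

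Of the 9 genes beside SGO2, PDS5B alone passed with library-size scaling, DESeq2's size factors and exon circles only. STAG1, PDS5A and PDS5B passed with DESeq2, the replicate block and no filter, and 0 passed with the newer dispersion method, with 5 counts in each of 2 libraries, with circles added to every gene, or without either knockdown library. Without control 1, 5 were higher and SMC3 lower, and without control 2, 6 were higher and SMC1A lower. SGO2's log2 fold change was 3.58 with library-size scaling, 4.40 with exon circles only and 3.80 to 4.19 without 1 library. Signs turned for RAD21 (-0.32 with library-size scaling, -0.13 with every gene named), WAPL (-0.16 with library-size scaling) and the intron-type NIPBL circle (-0.064 with library-size scaling, -0.16 with no filter). Without 1 library the log2 fold change ran from -0.97 to 0.45 for SMC3, -0.45 to 0.47 for RAD21, -0.32 to 1.09 for WAPL, -0.43 to 0.97 for that NIPBL circle, -0.028 to 2.21 for the PDS5A circle to 39869394 and -0.97 to 1.96 for the leading STAG2 circle. With circles of at least 10 counts only, the change in the leading circle's share was 38.1 percentage points for PDS5A, 22.4 for PDS5B and 12.1 for STAG2. Depth limits SMC1A, with 1 count in each knockdown library, and SGO1, which was too low to test.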

Other observations

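Antisense circles at the same genes were left out of the set and were few. WAPL had 23 and 17 antisense counts in controls 1 and 2 and 1 and 7 in knockdowns 1 and 2, STAG2 had 24, 0, 4 and 4, and PDS5B had 16, 3, 2 and 4 in the same order. SGO2 had 0, 0, 0 and 2.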
